A study of Sus scrofa with 13 samples.

Results

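Liver RNA of pigs that received human bone marrow mesenchymal stromal cells (BM-MSCs) through the hepatic artery was compared with that of ischemic controls that received no cells. The comparison takes the 4 arterial and the 3 ischemic control libraries of a series of 13 and all 35670 genes of its count table. Every animal was a female Yorkshire pig without genetic modification. The ischemic controls (n = 3) had 45 min of warm ischemia, with the inflow and the outflow of the liver clamped, and 6 h of reperfusion. The arterial infusion group (n = 4) had the same ischemia and reperfusion and was given 3 M cells per kg body weight (M for mega) shortly after the clamps were released. The other 6 libraries, 2 from livers before ischemia (baseline) and 4 after infusion of the same dose through the portal vein, served to estimate the spread and are given beside single results. The cells were cultured human cells in an animal with an intact immune system, and the labels name no group infused with the carrier fluid alone, so the cells cannot be told apart from the catheterization and infusion. In 1 pig of the arterial group the hepatic artery went into a spasm or dissected, and the labels do not say which library this is. Reads were mapped to the pig genome only, and transcripts of the human cells were not counted apart.

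When blood returns to a liver that was cut off from it, oxygen radicals form in the mitochondria, Kupffer cells (the resident macrophages of the liver sinusoids) release cytokines and complement is activated, and neutrophils follow within hours. Hepatocytes answer with stress programs: immediate early genes, heat shock proteins, hypoxia targets and the NRF2 program, which makes glutathione. Mesenchymal stromal cells are known for releasing factors that dampen inflammation. The branches of the hepatic artery and those of the portal vein meet in the sinusoids.

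The total count on genes was between 18975413 and 33133296 in the controls and between 24339939 and 35949178 after arterial infusion. Albumin (ALB), the main secreted protein of hepatocytes, was abundant in all 7 libraries, with normalized counts (counts divided by DESeq2 size factors) from 530402 to 1752740, and all 16 hepatocyte markers were measured. The libraries within each group were not alike. The first principal component of the 500 most variable genes held 55.9% of the variance and set control 2 (score 31.8) and arterial library 1 (36.6) apart from the other 5 libraries, which lay between -19.7 and -6.53. In addition, arterial libraries 1 and 2 held few thinly counted genes, 887 and 1744 genes with 1 to 9 reads, where the other 2 arterial libraries held 4196 and 4140 and the controls 3804 to 5358. A reading of 0 in arterial libraries 1 or 2 is therefore weaker evidence of a low level than in the others. Of the genes that were well measured elsewhere, 2.88% were at 0 in arterial library 1 and 0.864% in control 2. Many of the shifts that follow when one of these or another library is left out stand beside the values concerned. Reversals of single genes are listed in the closing section.

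**Figure D1:**
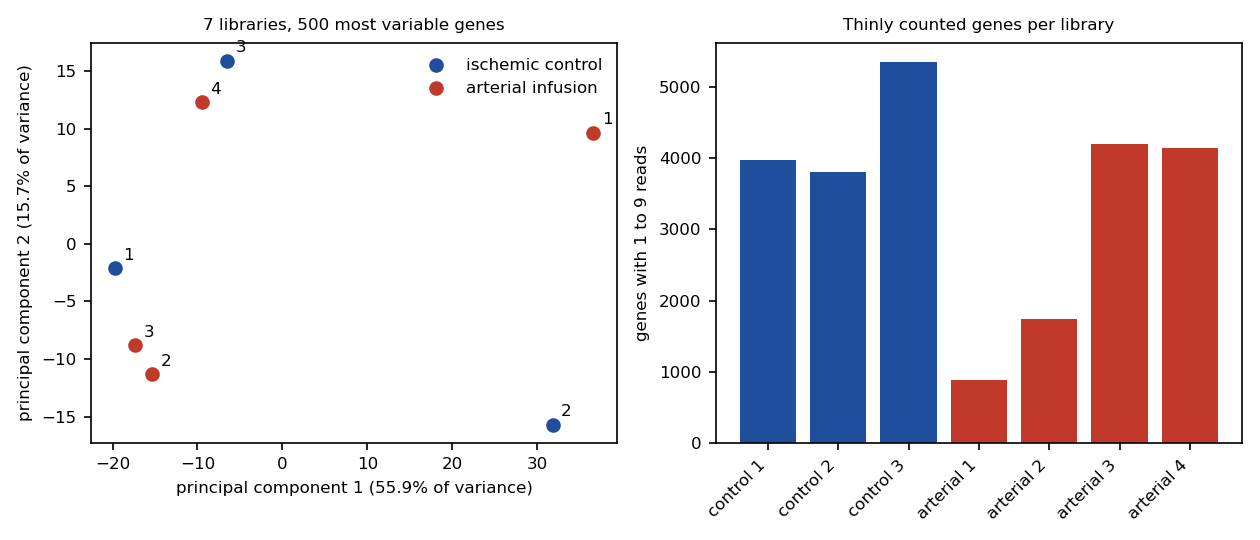
Left, scores of the 7 libraries on the first 2 principal components of the 500 most variable genes; each point is 1 library, numbered by replicate. Right, bars of the number of genes with 1 to 9 reads per library. Control 2 and arterial 1 lie together at the right end of the first component, and arterial 1 and 2 have the lowest bars, at 887 and 1744 genes.

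None of the 16481 genes tested differed between arterial infusion and ischemic controls at an adjusted p under 0.05 (edgeR's quasi-likelihood test, Benjamini-Hochberg adjustment, 0% called). The smallest adjusted p was 1 with edgeR and 0.0635 with DESeq2. Genes whose p before adjustment was under 0.05 numbered 258 (1.57%), of which 103 were higher (0.625%) and 155 lower (0.94%) after arterial infusion, and uniform p-values would give 5%. DESeq2 over all libraries gave 497 genes at that level and called 0. The levels of the 2 groups did not overlap for 525 genes (3.19%), 266 of them higher (1.61%) and 259 lower (1.57%). By simulation, the design could call only large changes. In simulated data with the measured spread of each gene, a log2 change of 2 was recovered in 0 of 200 genes and one of 3 in 95 of 200. The genes were drawn independently, without shifts shared by a whole library. With the change of 2, 718 unchanged genes had an edgeR p under 0.05, against 258 genes in the real data, so the simulation is only a rough guide. The values below therefore describe these 7 livers. The adjusted p of every gene named for this comparison was 1 with edgeR. Many log2 fold changes stand with their standard error (SE). Some of the SEs left out are large, such as 1.89 for IL1A and 1.87 for CCL8. The median log2 fold change of all genes was 0.01, and it moved by less than 0.1 under other normalizations.

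The genes with the smallest p among those that were lower after arterial infusion without overlap were led by MTUS1, a microtubule-associated tumor suppressor gene (chromosome 17, 5331668 to 5507212). Its normalized counts were 2444, 8586 and 1758 in the controls and 501, 877, 823 and 1151 after arterial infusion. Every arterial liver was below every control, and the log2 fold change was -2.32 (SE 0.53), or -1.37 without control 2. DENND2B, an activator of small GTPases of membrane traffic, lay between 117 and 384 after arterial infusion and between 510 and 1341 in controls (log2 fold change -1.79, SE 0.50). TINAGL1, an extracellular matrix protein, lay between 471 and 734 against 797 to 1982 (-1.23, SE 0.36). SPECC1, a cytoskeletal protein gene, was at 41.9 to 118 against 190 to 436 (-1.71, SE 0.54). MAPK7, the kinase ERK5 that endothelial cells use in their response to flow, was at 202 to 395 against 595 to 928 (-1.11, SE 0.38). MFSD2A, a transporter of lysophospholipids, was at 1849 to 4016 against 4914 to 10953 (-1.14, SE 0.38, or -0.70 without control 2). The remaining leading genes were the complement genes C1QA and C1QB and the sterol sensor INSIG1, described below, together with ALDH16A1 (-0.92), CHID1 (-0.93) and the ubiquitin-conjugating enzyme UBE2S (-1.40). The UBE2S value came to -0.42 without control 2, which held 7714 against 1683 and 2017 in the other controls.

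Among the genes that were higher without overlap, the smallest p belonged to GCLM and GCLC, the modifier and the catalytic subunit of glutamate-cysteine ligase, which makes the precursor of glutathione. GCLM (chromosome 4, 123371198 to 123390130) was at 1232, 1291 and 1244 in the controls and at 7991, 3295, 2267 and 1869 after arterial infusion (log2 fold change 1.60, SE 0.48). GCLC (chromosome 7, 27209565 to 27253535) was at 483, 506 and 640 in the controls and at 1183, 3343, 1449 and 862 after arterial infusion (1.64, SE 0.52). The controls were close together and all 4 arterial livers lay above them for both subunits, although the liver with the highest GCLM was not the one with the highest GCLC. The baseline libraries, at 2299 and 1491 for GCLM and at 1419 and 1103 for GCLC, also lay above every control. For GCLC both were within the arterial range. Without arterial library 1, GCLM was 0.97. TLCD2, a membrane protein gene, was at 382 to 557 against 175 to 287 (1.08, SE 0.36), and CRIM1, a membrane regulator of bone morphogenetic proteins, at 306 to 825 against 210 to 228 (1.20, SE 0.46). The others included PNISR (0.79), the splicing factor gene PRPF39 (1.12), the anchoring protein gene AKAP8 (1.06), the chromatin protein gene KMT2E (0.98) and CCNT2 (0.77), a cyclin of the elongation factor P-TEFb. SECISBP2L (0.84), ZCCHC2 (0.87) and the vesicular glutamate transporter SLC17A8 (3.07, at 0 to 8.70 in controls and 30.6 to 92.5 after arterial infusion) completed the leading genes.

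**Figure D2:**
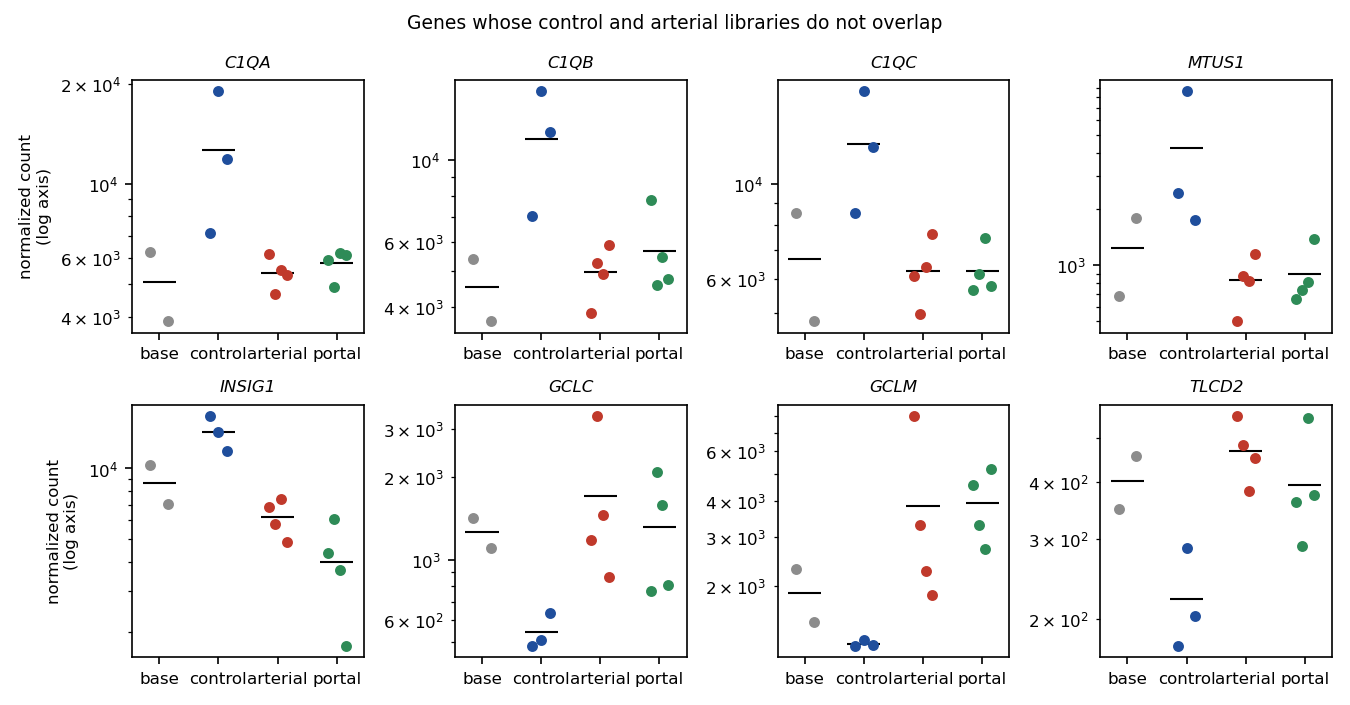
Normalized counts on a log axis of 8 genes in baseline, ischemic control, arterial and portal livers; each point is 1 library and each line a group mean. The 8 genes were picked among those whose arterial and control points do not overlap (3.19% of all genes tested), so the separation in each panel follows from that choice. C1QA was at 4674 to 6185 against 7108 to 18970 and GCLM at 1869 to 7991 against 1232 to 1291.

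Complement C1q, the recognition molecule of the classical pathway, is made in the liver mainly by macrophages. Its 3 chains are coded next to each other on chromosome 6 (C1QA 80586259 to 80589213, C1QC 80592591 to 80597464, C1QB 80601680 to 80606076), and all 3 were lower in every arterial liver than in any control. Of all genes, 1.57% were lower without overlap. C1QA and C1QB were among the leading genes picked for having no overlap, and C1QC was added after its values were seen, so the 3 are not independent evidence. C1QA was at 7108, 18970 and 11901 in controls and at 6185, 4674, 5507 and 5321 after arterial infusion (log2 fold change -1.21, SE 0.36). C1QB was at 7036, 15317 and 11878 against 3855, 5265, 4916 and 5865 (-1.19, SE 0.35). C1QC was at 8519, 16382 and 12151 against 6099, 4969, 6386 and 7617 (-0.98, SE 0.35). The 2 baseline libraries were at 6267 and 3874 for C1QA, at 5373 and 3653 for C1QB and at 8537 and 4779 for C1QC. The first of them lay above every arterial liver for C1QA and C1QC. Without control 2 the 3 values were -0.85, -0.96 and -0.76, and the arterial livers still lay below the other controls.

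Of 12 Kupffer cell and macrophage markers tested, of 14 listed, 9 were lower and 3 higher, with a median of -0.51 against 0.01 for all genes, and 4 were lower at an unadjusted p under 0.05 (0.94% of all genes were), the 3 C1q genes and CSF1R. CSF1R, the receptor that macrophages need for survival, was at 2018, 6054 and 3748 in controls and at 1817, 1740, 1820 and 2290 after arterial infusion (-1.03, SE 0.36, or -0.63 without control 2), with an overlap through arterial library 4 and control 1. SIGLEC1, a lectin of resident macrophages, was at 266 to 525 against 596 to 1187 without overlap (-1.03, SE 0.59). CD163, a scavenger receptor of the same cells, was at 9303, 4534 and 6900 against 2023, 4564, 5270 and 7755 and overlapped (-0.52, SE 0.61). The scavenger receptor MARCO went the other way in 1 liver, with 3695 in arterial library 1 and 146 to 331 in the other 3, against 200 to 452 in controls; the fitted difference of 1.90 turned to -0.41 once that liver was left out. The summed level of the markers was 26562 to 36831 after arterial infusion and 39144 to 66393 in controls, and the C1q genes make up much of both sums. In bulk tissue, fewer macrophages and less RNA per macrophage cannot be told apart.

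The other complement genes were less uniform. Of 24 tested, 15 were lower and 9 higher (median -0.13). CFD (-1.17) and MASP2 (-1.25) were lower at an unadjusted p under 0.05 (0.94% of all genes were). Both rested on control 2: without it CFD, the protease of the alternative pathway, was -0.32 and MASP2, the protease of the lectin pathway, was 0.14. C3, the central complement component and an acute phase protein, was at 273191, 438519 and 318596 in controls and at 222213, 194485, 259225 and 174379 after arterial infusion (-0.69, SE 0.40), which did not overlap. C4A was at 13751 to 32003 against 29880 to 48499 (-0.83, SE 0.39).

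Cytokine genes showed large differences, and most of these came from 1 control. TNF, an early cytokine of Kupffer cells in reperfusion, was at 13.4, 4887 and 23.1 in the controls and at 25.0, 53.9, 21.9 and 5.24 after arterial infusion. The log2 fold change of -5.89 (SE 1.47) became 0.49 without control 2. The chemokines CCL3L1 and CCL4, which attract monocytes and lymphocytes, behaved alike, with 5542 and 8372 in control 2. CCL3L1 was at 24.5 and 182 in the other controls and 33.3 to 102 after arterial infusion, so that -4.55 became -0.43. CCL4 was at 37.2 and 412 and at 146 to 441, so that -3.42 became 0.19. CCL8 held 289 in control 2 and at most 7.95 in the remaining 6 livers (-6.47, or -2.22 without control 2), and CCL14 went from -1.49 to -0.62. Of 22 chemokine genes tested, 19 were lower and 3 higher (median -0.58, or -0.33 without control 2), 4 of them at an unadjusted p under 0.05, all lower (0.94% of all genes).

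Among 24 inflammatory cytokines and feedback inhibitors, 16 were lower and 8 higher (median -0.28, or -0.07 without control 2 and -0.01 without control 2 and arterial library 1). TNF, IL1A and PTGS2 were lower (0.94% of all genes were) and IL33 higher (0.625% were) at an unadjusted p under 0.05. IL1A was at 13.4, 273 and 4.34 in the controls and at 0, 0, 0 and 6.29 after arterial infusion, 2 of the zeros being in libraries with few thinly counted genes (-5.85, or -2.51 without control 2). IL6 was at 98.9, 103 and 9.39 against 0, 12.1, 3.24 and 19.9 and overlapped (-3.00, SE 1.68). IL33, an alarmin stored in the nuclei of stromal and endothelial cells, was at 455, 94.6 and 220 in controls and at 350, 1094, 566 and 1858 after arterial infusion (1.86, SE 0.69), and overlapped through arterial library 1; without control 1 it was 2.61. CSF1, the growth factor of macrophages, was at 1341 to 1536 in controls and at 340, 1230, 1222 and 1067 after arterial infusion, without overlap (-0.60, SE 0.52).

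**Figure D3:**
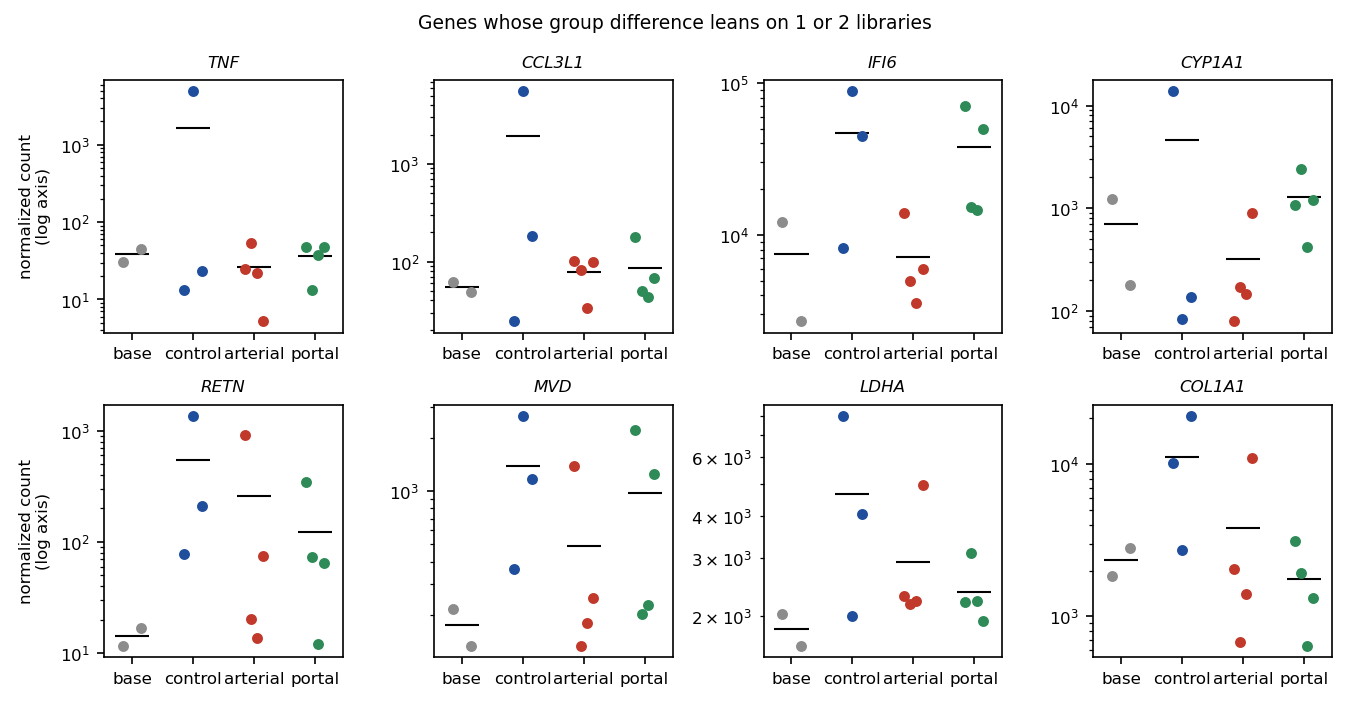
Normalized counts on a log axis of 8 genes in the 4 groups; each point is 1 library and each line a group mean. The control mean of TNF is set by 1 library at 4887, that of CYP1A1 by another at 13683, and the arterial means of RETN, MVD, LDHA and COL1A1 by 1 library each.

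Interferon-stimulated genes varied widely among the controls. The summed level of the 28 genes was 22043, 105188 and 95604 in the controls and 29548, 25938, 26353 and 26196 after arterial infusion, so that the arterial livers were close to each other and to control 1. The baseline livers had 36680 and 41244. Of the 28 genes 20 were lower and 8 higher, with a median of -0.70 that became 0.49 without control 3. IFI6, a mitochondrial protein that interferon induces, was at 8158, 87627 and 44718 in controls and at 13945, 4940, 3568 and 5968 after arterial infusion (-2.71, SE 0.78, or -1.93 without control 2). ISG12(A), another interferon-induced gene, was at 2172, 13189 and 17994 against 2532, 1303, 1242 and 1267 (-2.81, SE 0.72). Both overlapped only through control 1 and arterial library 1. IRF7, the master regulator of type I interferon genes, was at 263, 1590 and 1554 against 287 to 854, with control 1 again the lowest of the controls (-1.10, SE 0.67). Of 14 antigen presentation genes tested, of 20 listed, 12 were lower (median -0.21), none at an unadjusted p under 0.05. B2M, the light chain of MHC class I, was at 12503 to 37309 and at 8161 to 19138 (-0.94, SE 0.46, or -0.53 without control 2).

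The early stress programs did not separate the groups as a whole. Of 27 immediate early genes, 17 were lower, with NR4A1 and JUNB at an unadjusted p under 0.05 (0.94% of all genes). Their median of -0.43 came to -0.13 without control 1, -0.16 without control 2 and 0.15 without control 2 and arterial library 1. NR4A1, an orphan nuclear receptor, was at 976, 1600 and 453 in controls and at 224, 530, 209 and 340 after arterial infusion (-1.63, SE 0.53). JUNB, a subunit of AP-1, was at 3852 to 15588 against 3180 to 5744 (-1.19, SE 0.43, or -0.71 without control 2). FOSB, another AP-1 gene, was at 6588 in arterial library 2 and at 23.2, 1023 and 69.2 in the others, against 105 to 809 in controls, and its 2.49 came to 0.17 without that library. The 24 heat shock genes had a median of -0.04, which was 0.01 with upper quartile normalization and 0.64 without control 3, and their summed level overlapped, at 140051 to 465115 in controls and 219948 to 416144 after arterial infusion. DNAJB4, a cochaperone, was at 278 to 1364 in controls and at 243 to 5018 after arterial infusion (1.26, SE 0.80, or -0.12 without arterial library 2).

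Hypoxia response genes were balanced, 15 higher and 15 lower with a median of 0.01, yet their summed level was lower in every arterial liver (61587 to 75410) than in any control (80251 to 88572). Such a sum weighs the most abundant members most, and the part of each member in the difference was not tested. ENO1, enolase, was at 24974, 18255 and 17992 in controls and at 14172, 14083, 16604 and 13777 after arterial infusion (-0.49, SE 0.37). PFKFB3, which drives glycolysis through fructose 2,6-bisphosphate, was at 892 to 1134 against 378 to 787 (-0.82, SE 0.48). Neither of the 2 overlapped (1.57% of all genes were lower without overlap). DDIT4, an inhibitor of mTORC1, was at 3526 to 8822 against 2194 to 4923 (-0.90, SE 0.55). Of 24 genes of the unfolded protein and integrated stress response, 15 were lower (median -0.23, or 0.07 without control 1). At an unadjusted p under 0.05, PHGDH, the first enzyme of serine synthesis, was higher (0.89, at 757 to 1627 against 516 to 819). The chaperone CRELD2 was lower at that level (-1.12, or -0.61 without control 2). Of all genes, 0.625% were higher and 0.94% lower at that level. CALR, calreticulin, was at 24372 to 26417 in controls and at 16861 to 23756 after arterial infusion, a difference of -0.27 without overlap. The 22 p53 targets and apoptosis regulators had a median of -0.06. BBC3, the BH3-only protein PUMA, was at 87.0 to 229 in controls and 12.5 to 121 after arterial infusion (-1.41, SE 0.73), and BAK1, an effector of apoptosis, was at 205 to 343 and 115 to 245 (-0.77, SE 0.41).

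The antioxidant and NRF2 target genes as a list had a median of 0.04, with 12 of 23 tested genes higher, so the glutamate-cysteine ligase subunits did not stand for the list. At an unadjusted p under 0.05, GCLM, GCLC and NQO1 were higher (0.625% of all genes were) and MT1A was lower (0.94% were). NQO1, a quinone reductase that NRF2 induces, was at 144, 165 and 330 in controls and at 1153, 365, 136 and 1141 after arterial infusion (1.69, SE 0.62), with arterial library 3 below every control. HMOX1, heme oxygenase 1, was at 5343, 9491 and 4257 against 8398, 7965, 13328 and 6546 (0.52, SE 0.40, or 0.89 without control 2). The metallothionein MT1A was at 20889, 245821 and 35524 against 29180, 26835, 17559 and 47512, and its -1.70 was 0.06 without control 2.

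The sterol synthesis genes mostly pointed one way: of 25 tested, 23 were lower, with a median of -0.60 that lay between -1.03 and -0.34 when single libraries were left out. INSIG1, which holds back the sterol-sensing SREBP complex and is itself an SREBP target (chromosome 18, 2885494 to 2898758), was at 16723, 14277 and 11821 in controls and at 6876, 5774, 7418 and 4848 after arterial infusion. These groups were far apart (-1.21, SE 0.42), and the value stayed between -1.34 and -1.04 with any library left out. SREBF2, the transcription factor of the pathway, was at 1308, 3595 and 4795 against 2825, 849, 1106 and 1704 (-1.0, SE 0.46). Control 1 lay among the arterial livers for this gene. The summed level showed the same split, at 40163, 96415 and 81638 in controls and at 81877, 33843, 37961 and 37956 after arterial infusion, where arterial library 1 lay with controls 2 and 3.

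Other lipid and sugar genes differed less. Of 25 genes of PPARA signalling and fatty acid oxidation, 19 were higher (median 0.26, or 0.07 without arterial library 3). EHHADH, the bifunctional enzyme of peroxisomal oxidation, was at 3679, 2534 and 2667 in controls and at 5983, 4796, 4282 and 3970 after arterial infusion, without overlap (0.66, SE 0.53). ACADS, short-chain acyl-CoA dehydrogenase, was lower without overlap, at 2201 to 3043 against 3102 to 6239 (-0.77, SE 0.34, or -0.41 without control 2). PLIN2, the coat protein of lipid droplets, was at 4906, 2483 and 2015 against 956, 14175, 20385 and 4790 (1.67, SE 0.97); the arterial group spread on both sides of the controls. PDK4, which shuts glucose carbon out of the mitochondria, was at 421 to 2045 and at 1167 to 3544 (1.10, SE 0.67). The 18 fatty acid synthesis genes had a median of -0.17, or -0.62 without arterial library 1, with GPAM at 417 to 659 against 159 to 513 and FASN at 1160 to 5071 against 1922 to 7289. The 24 genes of glycolysis, gluconeogenesis and glycogen had a median of -0.09, or -0.4 without arterial library 4. PC, pyruvate carboxylase and the entry to gluconeogenesis, was at 11357, 14177 and 11144 in controls and at 6760, 6346, 8435 and 9207 after arterial infusion, without overlap (-0.67, SE 0.36). LDHA, lactate dehydrogenase, was at 2000 to 7971 and 2173 to 4972 (-0.72, or -0.05 without control 1).

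Of 13 protein genes of the mitochondrial genome, ND4L, ND4 and ATP6 were higher at an unadjusted p under 0.05 (0.625% of all genes were). All 13 were higher on average after arterial infusion, with a median of 1.08. These genes took 7.94%, 4.84% and 7.34% of the counts in the controls and 7.46%, 22.03%, 7.57% and 15.3% after arterial infusion, so that arterial libraries 2 and 4 were high and the other 2 lay in the range of the controls (exact permutation test of the share, two-sided p = 0.257, adjusted over 4 library measures 0.457; the smallest p possible is 0.0286). ND4L, a subunit of complex I, was at 9807, 4621 and 5299 in controls and at 3819, 64367, 30288 and 38767 after arterial infusion (2.35, SE 0.86). ND4 was at 65701 to 112607 in controls and at 74049, 643254, 281362 and 314812 after arterial infusion (1.82, SE 0.72). ND5 was lowest in arterial library 1, at 10070, and was at 116210 to 416037 in the others, against 17692 to 79002 (1.96, SE 1.04, or 1.04 without arterial library 2). ATP6, a subunit of the ATP synthase, was the only 1 of the 13 without overlap, at 256547, 211295 and 223830 against 348589, 1041050, 281973 and 472257 (1.19, SE 0.55). Of all genes, 1.61% were higher without overlap. Without arterial library 2 the median of the 13 was 0.53. The mitochondrial genes are part of the total to which all others are scaled; leaving them and the small RNA genes out gave 237 genes at an unadjusted p under 0.05 and 0 called.

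**Figure D4:**
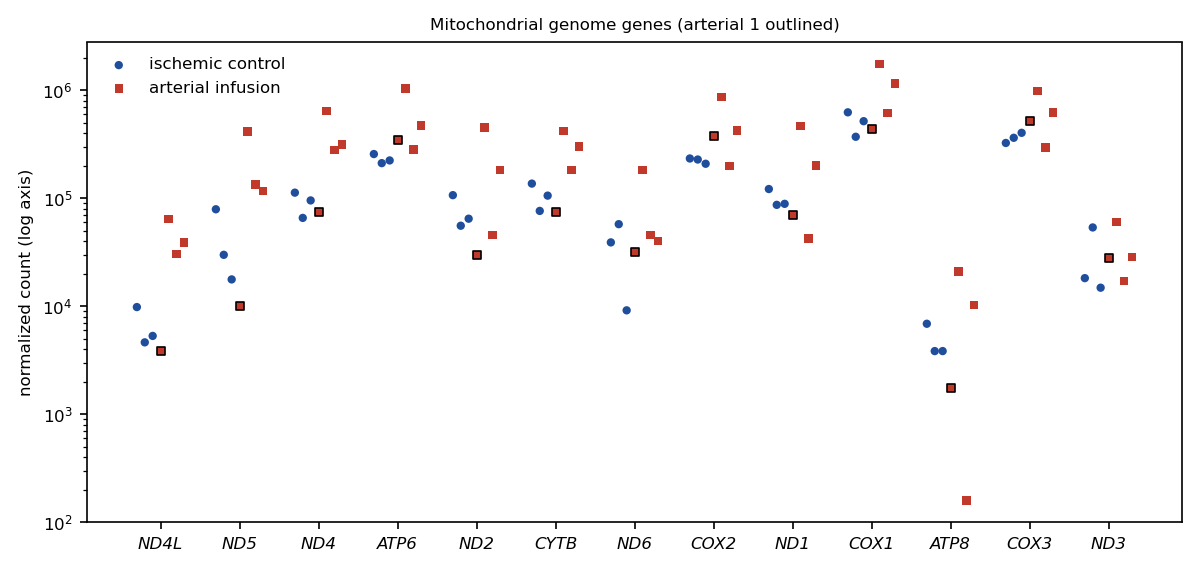
Normalized counts on a log axis of the 13 protein genes of the mitochondrial genome in the 3 control livers (circles) and the 4 arterial livers (squares, arterial 1 outlined). For ND4L, ND4 and ND5, 3 arterial livers lie above all controls while arterial 1 lies among or below them.

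The nuclear genes of the respiratory chain did not follow. Of 28 tested, 20 were lower (median -0.12, or 0.18 without control 2), and none was at an unadjusted p under 0.05. NDUFA1 and COX5B, small subunits of complexes I and IV, were highest in control 2, at 2751 and 16033, and their -0.91 and -0.88 became 0.34 and 0.29 without it. Of 65 cytosolic ribosomal protein genes, 48 were lower (median -0.14, or 0.35 without control 2), and RPL36 was at 23558 in control 2 against 3798 and 4300 in the other controls and 3866 to 6612 after arterial infusion. RPL28 was also highest in control 2, at 68552.

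Small nucleolar RNAs guide the chemical modification of ribosomal RNA and are cut from introns, without a poly-A tail of their own, so that in poly-A selected libraries they are caught thinly. Of 180 such genes in the table, 95 passed the count filter, of which 71 were higher and 24 lower, with a median of 1.35, and 6 had no read in any control (with these at their bound, 3 reads over the controls, the median was also 1.35). With a floor of 10 reads in every library the median of those left was -0.05. The summed level overlapped, at 941, 5047 and 769 in controls and at 1031, 5455, 4796 and 1889 after arterial infusion. There were 6 at an unadjusted p under 0.05, all higher (0.625% of all genes were). Genes at 0 in every control, such as SNORD45A, could pass the filter only through the groups in which they are present, so these counts and the median support no difference of the list. SNORD65 was at 9.49, 3.50 and 2.89 in controls and at 15.2, 70.6, 63.3 and 26.2 after arterial infusion, without overlap (2.98, SE 1.31). SNORA3A was at 4.75, 21.0 and 7.23 against 48.2, 108, 75.4 and 38.8, without overlap (2.66, SE 1.38). SNORD45A was at 0 in every control and at 0, 10.2, 9.73 and 6.29 after arterial infusion. SNORD81 was at 133 in control 2 and 3.61 to 11.5 in the rest of the livers. Reads of these genes cannot be told apart from unspliced RNA of their host genes.

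Hepatocyte markers and transcription factors had medians near 0, while those of acute phase and coagulation genes were lower. The 16 hepatocyte markers had a median of -0.04 (0.00 with upper quartile normalization), with ALB at 630487, 530402 and 1308990 in controls and 1030350 to 1752740 after arterial infusion. TAT, tyrosine aminotransferase, which glucocorticoids and amino acids induce, was the exception, at 78230, 43350 and 31452 in controls and at 14509, 24419, 20113 and 25341 after arterial infusion (-1.30, SE 0.53, no overlap). NR3C1, the glucocorticoid receptor, was higher without overlap, at 857 to 1171 against 389 to 678 (0.73, SE 0.38). The 22 hepatocyte transcription factors had a median of -0.05, and ESRRA, a regulator of mitochondrial genes, was at 1504 to 2963 against 2527 to 4387 (-0.70, SE 0.38). Of the 14 positive acute phase genes tested, of 22 listed, 12 were lower, with a median of -0.23, or -0.06 without control 2. CD14 was at 77782 in control 2 and 15556 to 28223 in the other livers (-0.86, or -0.09 without control 2). The 28 coagulation and fibrinolysis genes, 17 of them lower, had a median of -0.22, or 0.07 without control 3, and F7 and F11 overlapped widely.

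The 14 cytochrome P450 and related genes tested, of 23 listed, had a median of -0.06. CYP1A1, the target of the aryl hydrocarbon receptor, was at 13683, 84.1 and 138 in controls and at 80.3, 171, 147 and 898 after arterial infusion, so that -3.92 became 1.54 without control 1. NR1I2, the xenobiotic receptor PXR, was at 161 to 367 and 290 to 660 (0.72, SE 0.40). The 18 bile acid genes had a median of 0.15, with FGFR4 at -0.61 and NR1H4, the bile acid receptor FXR, at 0.61, and the 14 urea cycle and ammonia genes had a median of 0.04, with OTC at 2739 to 5098 against 1679 to 3098. The 18 clock genes had a median of -0.08; BHLHE41, a repressor in the clock, was at 26.1, 5.25 and 15.9 in controls and at 31.2, 35.3, 38.1 and 85.9 after arterial infusion, without overlap, and PER1 overlapped (-0.72, or -0.21 without control 2).

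Genes of the matrix spread widely in both groups. Of 31 collagen genes tested, 21 were lower, with a median of -0.55. That median came to -0.26 without control 1, -0.17 without arterial libraries 1 and 2, and -1.08 without arterial library 4. The summed level of the collagen genes overlapped, at 32679 to 83661 in controls and 20286 to 58602 after arterial infusion. COL6A2 and COL18A1 were lower at an unadjusted p under 0.05 (0.94% of all genes were). COL18A1, the basement membrane collagen that holds endostatin, was at 8715, 11951 and 18701 in controls and at 6025, 6911, 9735 and 7022 after arterial infusion (-0.82, SE 0.35). COL6A2 was at 1881, 784 and 4395 against 263, 212, 690 and 1799 (-1.69, SE 0.72), and was -0.89 without control 3 and -2.60 without arterial library 4. COL1A1, the main fibrillar collagen, was at 10110, 2719 and 20604 against 2054, 683, 1399 and 10968 (-1.60, SE 0.84), and was -0.82 without control 3 and -3.04 without arterial library 4. COL1A2 was at 1380 to 4557 against 888 to 3742 (-1.01, SE 0.65). COL24A1 went the other way without overlap, at 12.2 to 70.6 against 6.50 to 9.49. The 15 stellate cell and fibroblast markers, 8 of them lower, had a median of -0.15. It was 0.02 without control 1 and -0.59 without arterial library 4. The summed level of these markers overlapped, at 24377 to 54391 in controls and 18033 to 50281 after arterial infusion.

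The antigens by which mesenchymal stromal cells are recognized showed no separation. Of 10 tested, 5 were higher and 5 lower (median 0.06), and the summed level was 10126 to 12854 in controls and 8166 to 14712 after arterial infusion. ENG (CD105) was at 2732, 5420 and 4724 in controls and at 2619, 3205, 2997 and 5001 after arterial infusion (-0.31, SE 0.40), and NT5E (CD73) at 40.3, 43.8 and 105 against 30.3, 106, 111 and 156 (0.66, SE 1.05). MCAM was at 327 to 536 and 412 to 896, and LEPR at 498 to 972 and 310 to 613. These are pig genes that liver cells also express. Among 18 immune modulators that stromal cells are known to release or carry, 11 were lower (median -0.37, or -0.19 without control 2). CD274, the checkpoint ligand PD-L1, was at 428, 210 and 192 in controls and at 117, 133, 120 and 115 after arterial infusion, without overlap (-1.22, SE 0.56). PTGS2, the inducible cyclooxygenase, was at 783, 156 and 138 against 27.7, 129, 33.3 and 163 (-2.08, SE 0.84), or -0.72 without control 1. The 29 growth factors and receptors of liver repair had a median of -0.11, or -0.5 without arterial library 4. EGFR was at 2087 to 3461 against 551 to 2106 (-0.97, SE 0.55). WNT2, an endothelial signal to hepatocytes, was at 9.49 to 42.0 against 12.5 to 169 (1.34, SE 0.87, or 0.48 without arterial library 4). The 25 cell cycle genes had a median of 0.01, with MCM5 at -0.97 and CDK1 at 1.11 (0.56 without arterial library 1), both overlapping.

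Each biopsy can hold different shares of other cells, so their markers were counted too. The 14 endothelial markers had a median of 0.02, or -0.52 without arterial library 4. KDR, the main VEGF receptor, was at 912, 1119 and 1234 in controls and at 1163, 2940, 1685 and 3748 after arterial infusion (1.12, SE 0.45). CLDN5, a tight junction gene, was at 445 to 1127 against 272 to 653. The 9 bile duct markers had a median of 0.08, or 0.52 without control 3, and KRT7 and KRT19 overlapped. The 12 neutrophil markers tested, of 17 listed, had a median of -0.24, or 0.30 without control 2, with a summed level of 2323 to 16332 in controls and 1297 to 12881 after arterial infusion. S100A12 was highest in control 2 (4912), and MMP8 was highest in arterial library 4 (1268; 1.08, or 0.12 without that library). The 16 T and NK cell markers had a median of -0.18, or 0.20 without control 2, and CD4 and GZMB were highest in that library, at 1509 and 175 (-0.82 and -1.31, or 0.02 and -0.71 without it). The 9 B and plasma cell markers had a median of 0.18, with JCHAIN at 1.03 and MZB1 at -1.40. Without control 2 the median was 0.73, JCHAIN was at 0.65 and MZB1 at 0.73. The 6 erythroid and platelet markers tested, of 11 listed, had a median of -0.40, or 1.31 without control 2, where HBB was at 28228 against 1298 and 2726 in the other controls and 2091 to 12325 after arterial infusion. AHSP followed HBB. Control 2 thus stood highest in TNF, chemokine, red cell, ribosomal and several blood leukocyte genes at once, and the part of blood content in its values was not tested.

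**Figure D5:**
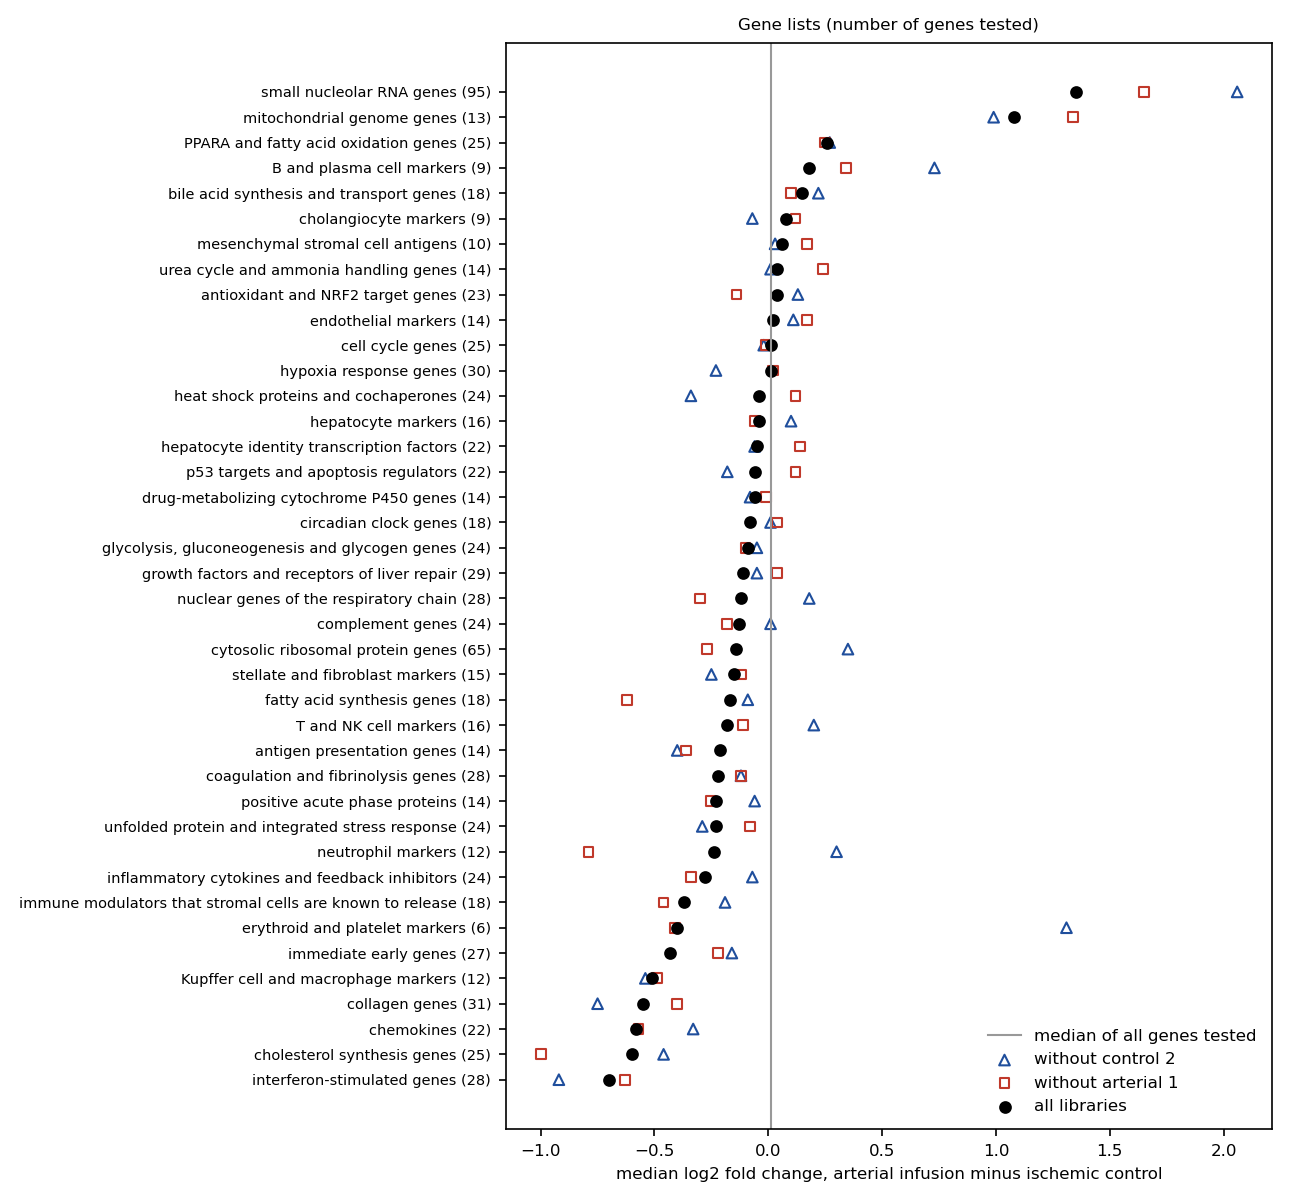
Median log2 fold change, arterial infusion minus ischemic control, of each of the 40 gene lists with all libraries (dots), without control 2 (triangles) and without arterial 1 (squares); the number of genes tested is in brackets and the line marks the median of all genes. Mitochondrial genome genes (1.08) and small nucleolar RNAs (1.35) lie to the right, interferon-stimulated (-0.70) and cholesterol genes (-0.60) to the left.

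The study itself picked 9 genes on these libraries, by setting the samples in which qPCR found human B2M, a mark of the infused cells, against the ischemic controls. The labels do not name these samples, so that comparison need not be the one of the 4 arterial livers. Since the genes were chosen against the same controls, their direction is not independent evidence. AK5, an adenylate kinase, was at 52.2, 12.3 and 16.6 in controls and at 9.81, 0, 0 and 0 after arterial infusion, without overlap (-3.46, SE 1.78). CCL26, an eotaxin, was at 49.0, 42.0 and 139 against 25.0, 0, 3.24 and 10.5, without overlap (-3.01, SE 1.55). SCN9A, a voltage-gated sodium channel, had 0 reads in the controls together and 0, 81, 49 and 14 reads after arterial infusion, which is at least 34.8-fold higher against a floor of 3 reads over the control group. The floor covers counting error only, and arterial library 1 was at 0 like the controls. CDC42EP5, a binding partner of CDC42, was at 619, 3639 and 442 in controls and at 883, 187, 200 and 268 after arterial infusion (-2.0, SE 0.81), or -0.50 without control 2 and -2.81 without arterial library 1. MVD, an enzyme of sterol synthesis, was at 364, 2665 and 1169 against 1394, 133, 179 and 248 (-1.51, SE 0.91), or -0.69 without control 2 and -2.88 without arterial library 1. RETN, resistin, was at 78.3, 1352 and 212 against 923, 20.4, 13.8 and 75.4 (-1.06, SE 1.28), or 0.79 without control 2. For these 3 genes control 2 and arterial library 1 were the high ones of their groups, the same libraries that stood apart on the first principal component. ND4L is given above. SNORD21 was at 11.9, 33.3 and 32.5 against 0, 322, 191 and 79.6 (2.53, SE 1.53), and SNORD24 at 8.70, 10.5 and 7.95 against 0, 52.9, 90.9 and 35.6 (2.31, SE 1.43), each with arterial library 1 at 0.

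The route of infusion was compared directly with the 4 portal livers. At an adjusted p under 0.05 edgeR called 0 of 16481 genes (0%) and DESeq2 called 1. Before adjustment, 396 genes (2.4%) had an edgeR p under 0.05. The gene DESeq2 called was DDIT4L, an inhibitor of mTOR signalling, named here after its values were seen. It was at 67.8, 28.8, 31.6 and 18.9 after arterial and at 0, 1.87, 3.01 and 0 after portal infusion, without overlap (edgeR log2 fold change 4.70, SE 1.11), while the controls were at 22.9, 38.5 and 83.8. Both zeros were in portal libraries 1 and 4, which held 322 and 492 genes with 1 to 9 reads. The interferon-induced IFI6 was at 3568 to 13945 after arterial and 14608 to 70568 after portal infusion, without overlap (-2.34, SE 0.74), and ISG12(A) was at 1242 to 2532 and 2818 to 17494, also without overlap (-2.15, SE 0.67). For the 24 genes that led the comparison with controls, arterial minus portal values lay between -0.72 (SPECC1) and 0.69 (CRIM1). CHID1, a chitinase-like gene, was at -0.64 (SE 0.31), with -0.93 after arterial and -0.28 after portal infusion against the controls. C1QA was at 4923 to 6199 after portal infusion (arterial minus portal -0.07, SE 0.34), MTUS1 at 663 to 1391 (-0.08, SE 0.49) and GCLM at 2716 to 5208 (-0.01, SE 0.42). Against the controls, which both comparisons share, C1QA was -1.21 after arterial and -1.14 after portal infusion, MTUS1 -2.32 and -2.25, and GCLM 1.60 and 1.60. INSIG1 was at 1743 to 6107 after portal infusion (arterial minus portal 0.66, SE 0.39).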

How the data were processed

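RNA from 13 pig liver samples was sequenced, and the 3 ischemic control and 4 arterial libraries are compared here. The authors mapped paired-end reads of non-directional poly-A libraries to Sscrofa11.1 (Ensembl 110) with HISAT2, counted them with FeatureCounts and deposited raw counts per gene; versions and the handling of multi-mapped reads are not given in the sources used here. Without strand, a gene and its antisense partner cannot be told apart. For RNA extraction the labels and the sequencing methods name different kits. Every column was matched to a sample by its label, and the 6 h libraries of a group are taken as separate pigs. Biopsies were taken before clamping and at 6 h, so a baseline library may share its pig with a 6 h library, which the labels do not tell. Of 35670 rows, 17640 carry a symbol, and 15623 identifiers were found in a pig gene name table, while coordinates are RefSeq's for Sscrofa11.1. Totals were 18975413 to 35949178 per library. No replicates were copies (smallest chi-square per gene 204).

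Counts were tested with edgeR 4.0.16 under R 4.3.3 (quasi-likelihood test after TMM scaling, genes kept by filterByExpr, all 13 libraries in 1 fit, 16481 genes, Benjamini-Hochberg threshold 0.05). The SE is the log2 fold change divided by the square root of F. Normalized counts used size factors of DESeq2 1.42.0, which was also an alternative test, as were limma 3.58.1 (voom) and sva 3.50.0. Library measures were compared by two-sided exact permutation tests over 35 arrangements. Scripts were tested on simulated data. The members and the 40 gene lists were chosen with earlier results of these data known, as were the alternatives. Genes were named by rule: any past the threshold (there were 0), the 12 with the smallest p in each direction with a symbol, a mean normalized count of 20 or more in the higher group and no overlap, the 2 leading members of each list with a mean of 20 or more, the 9 genes of the study, and ENG and NT5E (the antigen THY1 had no row under that symbol). A further 28 genes were added after their values were seen, and 2 of all these genes are not reported here. DESeq2's missing adjusted p-values stayed missing.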

Additional observations from a re-analysis of the deposited data

Results flagged for a closer look

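In 18 of 140 values tested (12.9%), 1 arterial liver stood apart from the other 3 by Dixon's ratio of the gap to the range. The ratio was then above its 95% critical value for 4 samples. Chance flags about 5% of normally distributed values. The flagged values are unlogged counts, and the genes were partly chosen by their values, so 12.9% cannot be set against 5%. Libraries with few thinly counted genes are among those that stood apart, and values that share a library are not independent.

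Arterial library 1 was the one apart for MARCO (3695 against 146 to 331, ratio 0.948), RETN (923 against 13.8 to 75.4, 0.932), MVD (1394 against 133 to 248, 0.908), MZB1 (201 against 30.8 to 47.2, 0.904), CDC42EP5 (883 against 187 to 268, 0.883), ISG12(A) (2532 against 1242 to 1303, 0.953) and AK5 (9.81 against 0, ratio 1). All 7 were higher in this liver than in the other arterial livers.

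Arterial library 4 was the one apart for LDHA (4972 against 2173 to 2302, 0.954), CYP1A1 (898 against 80.3 to 171, 0.889), BHLHE41 (85.9 against 31.2 to 38.1, 0.874), COL1A1 (10968 against 683 to 2054, 0.867), CSF1R (2290 against 1740 to 1820, 0.855) and IL1A (6.29 against 0, ratio 1). Arterial library 3 was apart for ACADS (3043 against 2201 to 2298, 0.884), ALDH16A1 (713 against 428 to 463, 0.877) and ENO1 (16604 against 13777 to 14172, 0.86). Arterial library 2 was apart for FOSB (6588 against 23.2 to 1023, 0.848) and, on the low side, SNORD81 (6.50 against 10.7 to 11.5, 0.837). The control group of 3 was not tested.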

How the results depend on the processing

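No gene passed the threshold between arterial infusion and ischemic controls in 20 of 21 alternative settings, and edgeR without a filter on low counts called 11, of which 10 were lower. Between arterial and portal infusion, DESeq2 over 13 libraries called 1 gene and edgeR without the filter called 5. Genes at an unadjusted p under 0.05 numbered 258 in the reported fit, 497 and 511 with DESeq2 over 13 and 7 libraries, 1013 with voom, 739 with 1 surrogate variable, 716 without the filter, 130 without arterial libraries 1 and 2 (an alternative chosen after seeing the data) and 154 to 429 with single libraries left out. Replicate numbers did not pair the libraries: same-numbered control and arterial libraries correlated at -0.391, -0.131 and -0.0751. With the replicate block 0 genes were called and 246 were at an unadjusted p under 0.05. DDIT4L, at -0.41 (SE 0.98) for arterial infusion against controls, turned to 0.20 with that block.

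Of 136 genes chosen by the rule or added, 24 reversed in some setting. Without control 2 and arterial 1 together, values were 0.04 for CD4, 1.40 for AHSP, 1.45 for HBB, 0.52 for TNF, 0.05 for MASP2, 0.13 for NDUFA1, 0.12 for COX5B, 0.14 for RPL36, 0.01 for RPL28, 0.38 for SNORD81, 0.27 for CCL4 and 0.08 for MT1A. With voom they were -0.37 for MMP8, 0.21 for AHSP, 0.44 for HBB and 0.27 for SNORD81, HBB was 0.10 with the surrogate variable, and MARCO was -0.83 without arterial 1 and 2. With each library left out in turn, ranges that crossed 0 were -1.19 to 0.52 for KRT7, -1.41 to 0.39 for S100A12, -1.15 to 0.02 for CD4, -2.43 to 0.73 for MZB1, -2.38 to 1.25 for AHSP, -1.76 to 1.37 for HBB, -6.53 to 0.49 for TNF, -0.12 to 2.16 for DNAJB4, -1.46 to 0.64 for SERPINH1, -1.68 to 0.14 for MASP2, -1.22 to 0.09 for F7, -1.15 to 0.30 for F11, -5.19 to 1.54 for CYP1A1, -1.33 to 0.34 for NDUFA1, -1.29 to 0.29 for COX5B, -1.45 to 0.29 for RPL36, -1.36 to 0.13 for RPL28, -2.84 to 0.41 for SNORD81, -3.88 to 0.79 for RETN, -0.41 to 2.35 for MARCO, -4.0 to 0.19 for CCL4, -2.17 to 0.06 for MT1A and -0.88 to 0.24 for DDIT4L. The difference in genes with at least 10 reads ran from -38.25 to 829.2 genes. The cause of these shifts was not tested beyond the library left out. Examples of list medians that turned sign were, without control 2, neutrophil (0.30), T and NK cell (0.20), erythroid (1.31), respiratory chain (0.18) and ribosomal protein genes (0.35), and, without control 3, interferon-stimulated (0.49) and heat shock genes (0.64). Low counts limit the small nucleolar RNAs, SCN9A, AK5, IL1A and CCL26, whose zeros lie partly in libraries with few thinly counted genes.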

Other observations

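The share of counts in the 10 most abundant genes was 26.64% ± 3.67 (SD, n = 4) after arterial infusion and 21.44% ± 1.77 (SD, n = 3) in controls (two-sided exact permutation test, p = 0.0857, adjusted over 4 library measures 0.343). Genes with at least 1 read numbered 17092 ± 1679 and 18367 ± 1710 (p = 0.343, adjusted 0.457), and genes with at least 10 reads 14351 ± 222 and 13989 ± 875 (exact permutation p = 0.514, adjusted 0.514). Without a filter on low counts, edgeR called TNF, CCL3L1, CCL4, CYP1A1, MTUS1, IFI6 and ISG12(A) lower, and of these only MTUS1 had groups that did not overlap.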
